A study of Mus musculus with 24 samples.

Results

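The genes described here encode the B cell receptor complex and proteins that mark B cell identity. They are Cd79a, Cd79b, Ms4a1, Cd22, Pax5, Blnk, Fcer2a, Cr2 and Vpreb3, chosen by name, and every array probe carrying 1 of these 9 symbols was taken. This gave 14 of the 34850 probes with a gene symbol, and all 9 genes, of 21597 gene symbols on the array, were among the 17347 genes tested. Expression was profiled in C57BL/6 mouse cells on 12 Agilent 2-colour arrays, and both biological replicates of a condition shared an array, replicate 1 labelled with Cy5 and replicate 2 with Cy3. The B cells were resting splenic B cells left after magnetic removal of cells bearing CD43 or CD11b, and they were untreated, treated with Kdo2 lipid A (KLA) for 1 h, with the solvent DMSO for 12 h, or with KLA for 12 h. KLA is an agonist of TLR4, the receptor for bacterial lipid A. Elicited peritoneal macrophages (EPM), which were collected from the peritoneum after thioglycollate injection and plated overnight, were untreated or received KLA for 1 h, DMSO for 12 h or KLA for 12 h. Bone marrow-derived macrophages (BMDM), grown in L-cell conditioned medium as a source of M-CSF, received DMSO or KLA for 1 h or for 12 h. The age of the mice is not given in the sources used here, nor is the time for which untreated B cells were held, so that culture, time and solvent cannot be told apart between untreated and DMSO 12 h B cells.

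Mature B cells recognise antigen through membrane immunoglobulin, which signals through the Cd79a and Cd79b heterodimer and its tyrosine motifs. The kinase Syk binds these motifs and phosphorylates the adaptor Blnk, while Cr2 lowers the threshold for signalling to antigen that carries complement and Cd22 raises it by recruiting phosphatases. Pax5 is the transcription factor that commits cells to the B lineage and keeps them there, and several of the genes described here are known to be its targets.

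Promoter sequences were available from RefSeq (GRCm38.p6) for 7 of the 9 genes, and for Fcer2a there were several. A few of these are printed. They hold a motif of a factor with a known role in B cells, or their gene changed most between untreated and 12 h B cells. The octamer ATTTGCAT, the site of Oct factors and their B cell coactivator, was present in the 250 bases before the start sites of Blnk and Vpreb3 and in 1.6% of all 32851 promoters. The core CCCNNGGG of the site bound by EBF was present in Cd22 and in 11.8% of all promoters. GAGGAA, the core of many PU.1 sites, was present in Cd79a and in 23.3% of all promoters. Both strands were searched, capitals mark the matches, and the matches did not overlap. No member promoter other than those named held these letters in this window, and a match is a description of sequence and not a measured site. Only these exact letters were searched, so the lack of a match does not show that a site is absent. The windows are chr19:40994222-40994471, strand - for Blnk, chr10:75948050-75948299, strand + for Vpreb3 and chr7:30879029-30879278, strand - for Cd22.
Blnk: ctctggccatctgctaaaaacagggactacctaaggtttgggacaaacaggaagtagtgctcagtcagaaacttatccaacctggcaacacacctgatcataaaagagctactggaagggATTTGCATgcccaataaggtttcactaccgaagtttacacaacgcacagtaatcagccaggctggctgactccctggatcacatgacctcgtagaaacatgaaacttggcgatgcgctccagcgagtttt
Vpreb3: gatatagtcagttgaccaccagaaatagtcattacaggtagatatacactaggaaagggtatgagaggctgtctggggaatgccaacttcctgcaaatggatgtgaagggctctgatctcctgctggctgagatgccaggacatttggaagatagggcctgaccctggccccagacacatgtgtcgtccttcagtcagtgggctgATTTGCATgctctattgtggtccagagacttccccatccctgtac
Cd22: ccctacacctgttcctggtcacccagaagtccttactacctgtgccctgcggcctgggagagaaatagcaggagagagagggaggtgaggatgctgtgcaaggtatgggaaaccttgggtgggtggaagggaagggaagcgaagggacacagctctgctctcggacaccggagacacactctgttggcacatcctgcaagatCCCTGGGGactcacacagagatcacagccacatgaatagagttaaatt

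Probe positions are those of the array design on mm8, for which no gene annotation was used here. The probe used for each gene was the one with the highest mean over all channels. It lay on chromosome 7 for Cd79a (NM_007655, 24608094 to 24608351) and Cd22 (NM_009845, 30575331 to 30575390), and on chromosome 11 for Cd79b (NM_008339, 106127556 to 106127615). On chromosome 19 it lay at 40982249 to 40982308 for Blnk (NM_008528) and at 11317922 to 11317981 for Ms4a1 (NM_007641). It lay on chromosome 4 for Pax5 (44546164 to 44546223), chromosome 8 for Fcer2a (NM_013517, 3682021 to 3682080), chromosome 1 for Cr2 (NM_007758, 196841901 to 196841960) and chromosome 10 for Vpreb3 (NM_009514, 75393236 to 75393295). The Pax5 probe is listed for AK040987, a cDNA clone, and a second and dimmer probe is listed for the Pax5 mRNA itself (NM_008782). Ms4a1, Cd22, Cr2 and Vpreb3 also had a second probe. Levels are given as log2 intensity after normalization, and an offset added during background correction compresses the differences of dim probes. Levels of different probes are not compared.

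A conflict over labels affects 2 of the 4 B cell conditions. The authors also deposited a table of normalized intensities, and 20 of its 24 columns were closest to the scanner channel of the same sample. The 4 columns of B cells with KLA for 1 h and with DMSO for 12 h each matched the other of these conditions best. Their r across probes, after each slide was centred, was 0.97 or more with that condition and -0.70 or less with the one of the same label. Labels of the scanner channels were kept, and results that rest on either condition are also given with these labels exchanged. The comparison of KLA 12 h with untreated B cells does not involve either condition. All 4 arrays of a cell type were on 1 slide, and both replicates of a condition shared an array. The p-values therefore rest on the spread between the 2 channels of an array, and differences between arrays cannot be told apart from differences between conditions. In B cell channels 57.4% to 61.5% of probes were well above background, a flag set by the scanner software, and no spot was saturated. In these bulk samples, fewer cells of a type and less RNA per cell cannot be told apart.

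In all 8 B cell channels each of the 9 genes was well above background. After 12 h in DMSO, 7 were higher and 1 was lower than in untreated cells (limma, adjusted p under 0.05), against 25.0% of all genes tested being higher and 22.4% lower. After 12 h in KLA, 6 were higher and 1 lower, against 23.8% and 22.5% of all genes. Cd22 changed most, rising 2.85-fold in DMSO and 2.57-fold in KLA, whereas Fcer2a fell and Cd79b passed the threshold in neither comparison. The median log2 change of the 9 genes was 0.30 in DMSO and 0.21 in KLA, whereas the median over all genes tested was -0.003 and -0.006. These comparisons share the untreated samples. With array means as samples, the untreated array was pooled with the KLA 1 h array, and both 12 h arrays were pooled. The counts fell to 2 genes, Ms4a1 (adjusted p = 0.046) and Fcer2a (adjusted p = 0.0112) in limma, against 756 higher and 481 lower of all 17347 genes. With the B cell labels exchanged, 0 genes passed in DMSO (limma), with 1 at an unadjusted p under 0.05. Of all 17345 genes, 472 were then higher and 425 lower.

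**Figure D1:**
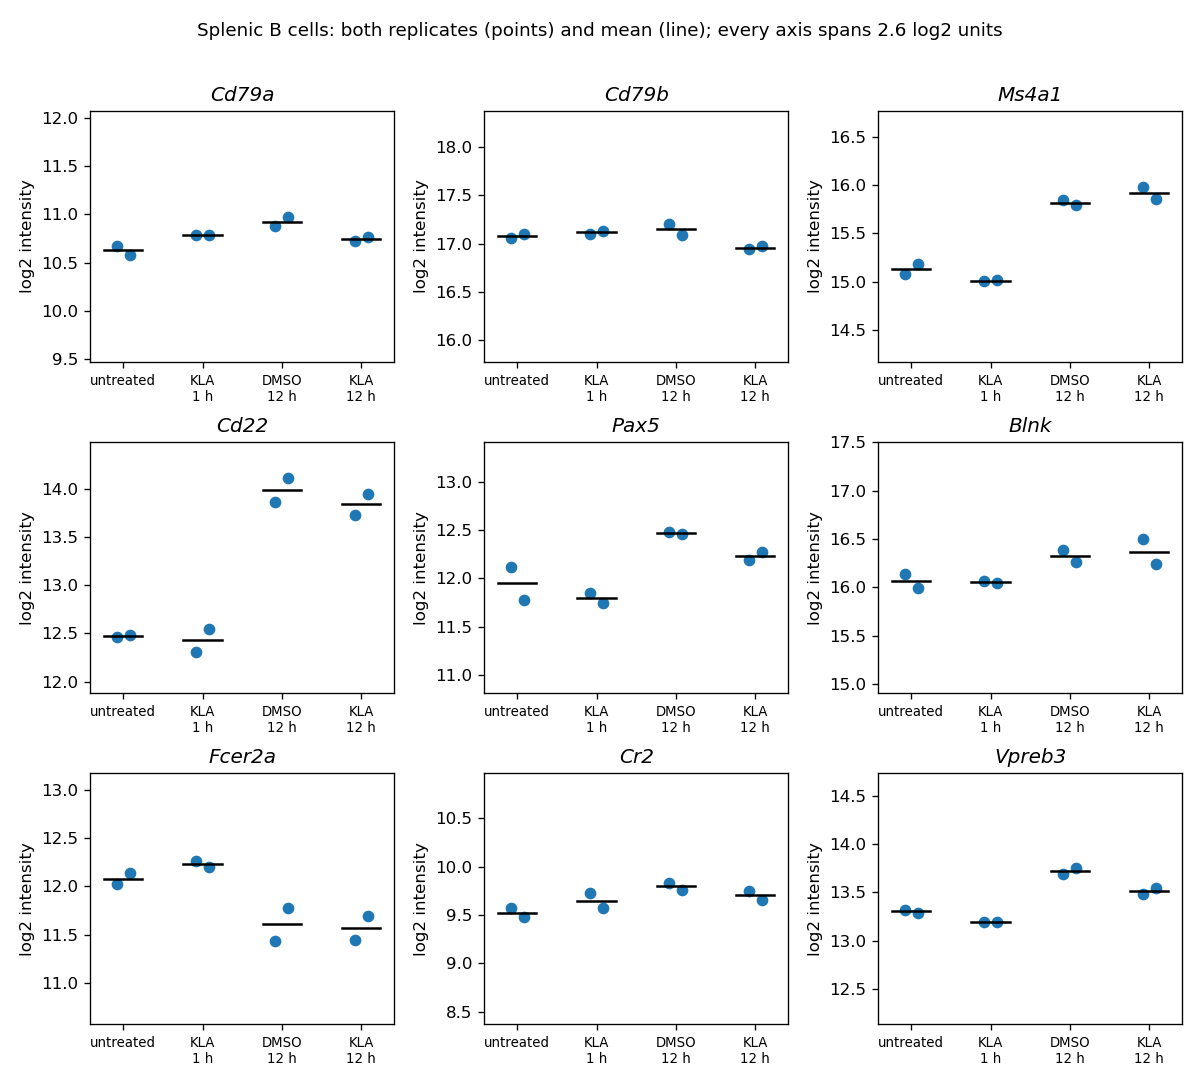
Normalized log2 intensity (y axis) of the 9 genes in the 4 B cell conditions (x axis), with both replicates as points and their mean as a line, every y axis spanning 2.6 log2 units. Cd22 and Ms4a1 are higher in both 12 h conditions than in untreated and KLA 1 h cells, Fcer2a is lower, and Cd79b stays between 16.95 and 17.21.

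Cd79a and Cd79b form the signalling heterodimer of the receptor. Cd79b had log2 intensities of 17.05 and 17.10 in untreated cells, 17.10 and 17.13 with KLA for 1 h, 17.21 and 17.09 in DMSO for 12 h, and 16.95 and 16.97 with KLA for 12 h. The ranges of untreated and DMSO cells overlapped, and the KLA 12 h replicates were the lowest. Its log2 change was 0.07 in DMSO (95% interval -0.14 to 0.29, adjusted p = 0.596) and -0.11 in KLA 12 h (interval -0.33 to 0.10, adjusted p = 0.402). Cd79a had 10.68 and 10.58 in untreated cells, 10.78 and 10.79 with KLA for 1 h, 10.88 and 10.97 in DMSO, and 10.73 and 10.77 with KLA for 12 h. Every other replicate was above both untreated ones, although the steps were small. Cd79a rose by 0.30 on the log2 scale in DMSO (standard error 0.0607, adjusted p = 0.000461), which was not called without the quantile step between arrays (0.15, adjusted p = 0.0546) or with processed signal (0.24, adjusted p = 0.126). Its change with KLA for 12 h was 0.12 (adjusted p = 0.122).

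Blnk, the adaptor that links Syk to phospholipase C, had log2 intensities of 16.14 and 15.99 in untreated cells, 16.06 and 16.05 with KLA for 1 h, 16.39 and 16.26 in DMSO, and 16.50 and 16.24 with KLA for 12 h. Both 12 h conditions lay above the others and their ranges overlapped each other. Blnk rose by 0.26 in DMSO (adjusted p = 0.0101) and by 0.30 with KLA for 12 h (adjusted p = 0.00334). The call in DMSO was lost without DMSO replicate 1 or untreated replicate 2 (log2 changes from 0.18 to 0.33 over the replicates left out). The call with KLA was lost without KLA 12 h replicate 1 or untreated replicate 2 (from 0.18 to 0.43).

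Cd22, an inhibitory coreceptor that binds sialic acid, had log2 intensities of 12.46 and 12.49 in untreated cells and 12.31 and 12.55 with KLA for 1 h. It had 13.86 and 14.11 in DMSO and 13.73 and 13.94 with KLA for 12 h. The conditions fell into an early and a late pair, with overlapping ranges within each pair and none between them. The log2 change was 1.51 in DMSO (standard error 0.117, adjusted p = 5.08e-09) and 1.36 with KLA for 12 h (adjusted p = 2.54e-08). The second Cd22 probe, at 30584884 to 30586208 on chromosome 7, rose by 1.14 and 0.86. With array means as samples the change was 1.46 (adjusted p = 0.0631).

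Cr2 (CD21) is a complement receptor of the B cell coreceptor complex. It had log2 intensities of 9.57 and 9.48 in untreated cells, 9.72 and 9.57 with KLA for 1 h, 9.83 and 9.75 in DMSO, and 9.75 and 9.66 with KLA for 12 h. Neighbouring conditions in this order overlapped or nearly touched. Cr2 rose by 0.27 in DMSO (adjusted p = 0.00369) and by 0.18 with KLA for 12 h (adjusted p = 0.0447), and neither was called with an offset of 16 (adjusted p = 0.063 and 0.223). The KLA call was also lost without the quantile step between arrays (adjusted p = 0.0908). It was lost as well in a fit of B cell channels alone (adjusted p = 0.0831), and without KLA 12 h replicate 1 or untreated replicate 2. The log2 differences of the second Cr2 probe from untreated, with no test of their own, were 0.14 in DMSO and 0.29 with KLA for 12 h. Both 12 h conditions had the opposite order on the 2 probes, KLA minus DMSO being 0.15 on the second and -0.09 on the main probe.

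Fcer2a (CD23), the low-affinity receptor for IgE, went the other way. It had log2 intensities of 12.03 and 12.14 in untreated cells and 12.26 and 12.20 with KLA for 1 h, against 11.44 and 11.77 in DMSO and 11.44 and 11.69 with KLA for 12 h. Both 12 h conditions lay below the early ones, and their ranges overlapped. Fcer2a fell by 0.47 on the log2 scale in DMSO (standard error 0.106, adjusted p = 0.00104) and by 0.51 with KLA for 12 h (adjusted p = 0.000539). Without DMSO replicate 1 the change in DMSO was -0.31 (adjusted p = 0.0374), and the range over replicates left out was -0.64 to -0.31. With processed signal the fall in DMSO was larger but not called (-0.54, adjusted p = 0.0612).

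Ms4a1 (CD20), a membrane protein of mature B cells, had log2 intensities of 15.08 and 15.18 in untreated cells, 15.00 and 15.02 with KLA for 1 h, 15.84 and 15.79 in DMSO, and 15.98 and 15.85 with KLA for 12 h. The 12 h replicates were all above the early ones. Ms4a1 rose by 0.68 in DMSO (standard error 0.0966, adjusted p = 9.76e-06) and by 0.78 with KLA for 12 h (adjusted p = 2.23e-06). Its second probe rose by 0.46 and 0.50.

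Pax5 had log2 intensities of 12.12 and 11.78 in untreated cells, 11.84 and 11.75 with KLA for 1 h, 12.48 and 12.46 in DMSO, and 12.19 and 12.28 with KLA for 12 h. The untreated replicates differed more than those of any other B cell condition for this gene. Pax5 rose by 0.52 in DMSO (adjusted p = 3.65e-05) and by 0.28 with KLA for 12 h (adjusted p = 0.00858). The probe for the Pax5 mRNA itself rose by 0.28 and 0.16, and with it in place of the brighter probe the KLA change was not called (adjusted p = 0.0578). That call was also lost without the quantile step between arrays (adjusted p = 0.163), with processed signal (adjusted p = 0.471), and without KLA 12 h replicate 2 (0.24) or untreated replicate 2 (0.11). Without untreated replicate 1 it was 0.45. Vpreb3, a relative of the surrogate light chain, had 13.32 and 13.29 in untreated cells, 13.19 and 13.19 with KLA for 1 h, 13.69 and 13.75 in DMSO, and 13.48 and 13.54 with KLA for 12 h. No 2 conditions overlapped. Vpreb3 rose by 0.42 in DMSO (adjusted p = 2.55e-05) and by 0.21 with KLA for 12 h (adjusted p = 0.0123), and its second probe rose by 0.53 and 0.31. The KLA call was lost with an offset of 16 (adjusted p = 0.0724), without the quantile step (adjusted p = 0.367), with processed signal (adjusted p = 0.419), and without KLA 12 h replicate 2 or untreated replicate 2. Without untreated replicate 2 the KLA 12 h calls of Blnk, Cr2, Pax5 and Vpreb3 were lost together.

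By the scanner labels no call was made for these genes in the comparisons of KLA with untreated cells at 1 h and with DMSO at 12 h. In the comparison of KLA 1 h with untreated cells 0 of the 9 genes passed (limma), with 1 at an unadjusted p under 0.05, against 2.72% of all genes tested being higher and 2.45% lower. The log2 differences lay between -0.15 for Pax5 and 0.16 for Cd79a, and the 95% interval for Cd22 was -0.29 to 0.20. In the comparison of KLA 12 h with DMSO 12 h 0 of 9 passed (limma), with 3 at an unadjusted p under 0.05, against 2.81% of all genes higher and 2.48% lower. These differences lay between -0.24 for Pax5 and 0.10 for Ms4a1. With the dye as a replicate block, Pax5 (-0.24, adjusted p = 0.0462) and Vpreb3 (-0.21, adjusted p = 0.0303) passed as lower with KLA for 12 h than with DMSO. Of all 17346 genes, 985 were then higher and 952 lower.

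The exchange of labels changes these comparisons most. With the labels of KLA 1 h and DMSO 12 h exchanged, 8 genes passed between KLA 1 h and untreated cells, led by Cd22 (1.51) and Ms4a1 (0.68). Of all 17344 genes tested, 4335 were higher and 3883 lower in that comparison. Between KLA 12 h and DMSO 12 h 6 passed, with Cd22 at 1.41 and Fcer2a at -0.66, against 4298 higher and 4228 lower of 17347. In the authors' table, taken by its own labels, Cd22 was 1.40 above untreated in KLA 1 h (adjusted p = 2.3e-09) and -0.02 in DMSO 12 h (adjusted p = 0.972). Its change with KLA for 12 h, the comparison outside the conflict, was 1.24 in the authors' table (adjusted p = 1.52e-08). There, 3 of the 9 genes passed with KLA for 12 h, namely Cd22, Ms4a1 and Blnk, against 3833 higher and 3189 lower of all 17152 genes.

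**Figure D2:**
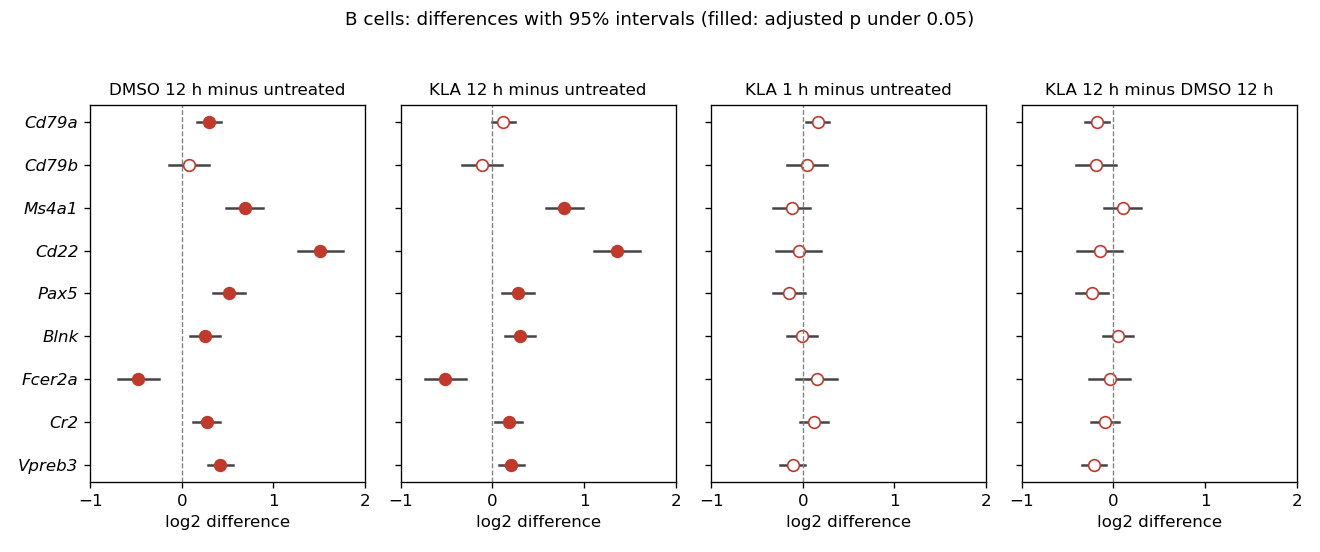
Log2 difference (x axis) of each gene (y axis) in the 4 B cell comparisons, with 95% intervals from limma as lines and filled points for adjusted p under 0.05. Filled points appear in the comparisons of DMSO 12 h and KLA 12 h with untreated cells, 8 and 7 of 9, and 0 of 9 are filled in the comparisons of KLA 1 h with untreated and of KLA 12 h with DMSO 12 h.

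Other genes of receptor signalling and B cell identity moved in both directions over the same interval. Of 112 genes tested on lists for the pathway, B cell surface and B cell stages, 52 were higher and 36 lower after 12 h in DMSO. After 12 h in KLA 50 were higher and 38 lower. Over all genes tested, 25.0% were higher and 22.4% lower in DMSO, and 23.8% and 22.5% in KLA. The list counts that follow are to be read against these shares. Among proximal signalling genes, 11 of 25 were higher and 5 lower in DMSO, with a list median of 0.22. Bank1, a scaffold that binds Lyn, rose by 1.48 (adjusted p = 9.43e-12). The Src-family kinases Fyn and Blk fell by 1.28 and 0.64. Bank1, Fyn and Blk kept these directions with KLA for 12 h, at 1.43, -1.34 and -0.82. Syk fell by 0.36 (adjusted p = 0.00661), whereas Lyn was -0.17 (adjusted p = 0.336), both named here after their values were seen.

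Of 13 negative regulators of the receptor 9 were higher and 2 lower in DMSO, against 25.0% and 22.4% of all genes. Counts were the same with KLA for 12 h (list medians 0.54 in DMSO and 0.71 in KLA). Ptpn6, the phosphatase SHP-1 that Cd22 recruits, rose from 13.23 and 13.06 to 14.52 and 14.51, by 1.37 on the log2 scale (adjusted p = 1.76e-11). The adaptor Dok3 rose by 1.61. Inpp5d, the lipid phosphatase SHIP-1, fell by 0.55. Lilrb4 was not well above background in DMSO and was at least 1.62-fold higher in untreated cells (adjusted p = 6.94e-08). With array means as samples 4 of 13 were higher and 0 lower, against 756 higher and 481 lower of all 17347 genes.

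Among B-lineage transcription factors 8 of 19 were higher and 7 lower in DMSO, against 25.0% and 22.4% of all genes. Mef2c and Bcl11a rose by 1.09 and 0.84, whereas Irf4, which is induced by receptor signals, and Ebf1 fell by 1.11 and 0.66. Of 25 other B cell surface genes 15 were higher and 5 lower. Cd180, a relative of TLR4, rose by 1.97, and Tnfrsf13b, the BAFF and APRIL receptor TACI, by 1.84. Cd83 and Cd40 fell by 1.43 and 1.24. Cd40 (0.34, adjusted p = 0.00332) and Cd83 (0.27, adjusted p = 0.0165) were higher with KLA than with DMSO at 12 h.

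Of 13 activation genes 11 were lower in DMSO and 1 was higher (median -1.23), against 22.4% and 25.0% of all genes. Cd69 had 11.93 and 11.60 in untreated cells and 9.69 and 9.62 in DMSO, and fell by 2.11 on the log2 scale (adjusted p = 1.24e-11), and Cd86 fell by 2.07. Il6 was not well above background in untreated cells, and was at least 3.06-fold higher in DMSO and at least 9.07-fold higher with KLA for 12 h. It was 1.57 higher on the log2 scale with KLA than with DMSO (adjusted p = 4.66e-12). With array means as samples 0 of 13 were called in limma and 0 had an unadjusted p under 0.05, with a median of -1.19. Immature B cell genes had 4 of 8 higher and 2 lower, with Cd93 (1.04) and Vpreb1 (0.84) rising and Rag1 (-0.91) and Il7r (-0.23) falling. Of 9 plasma cell and germinal centre genes 4 were higher and 4 lower. Mzb1 (1.07) and Pdia4 (0.63) rose, whereas the J chain gene Igj (-0.80) and Creld2 (-0.37) fell. With the B cell labels exchanged, few of these genes were called in DMSO, with 0 of 25 proximal signalling genes and 0 of 13 negative regulators in limma. At an unadjusted p under 0.05 there were 8 and 2 genes. Of all 17345 genes tested, 472 were higher and 425 lower with labels exchanged.

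**Figure D3:**
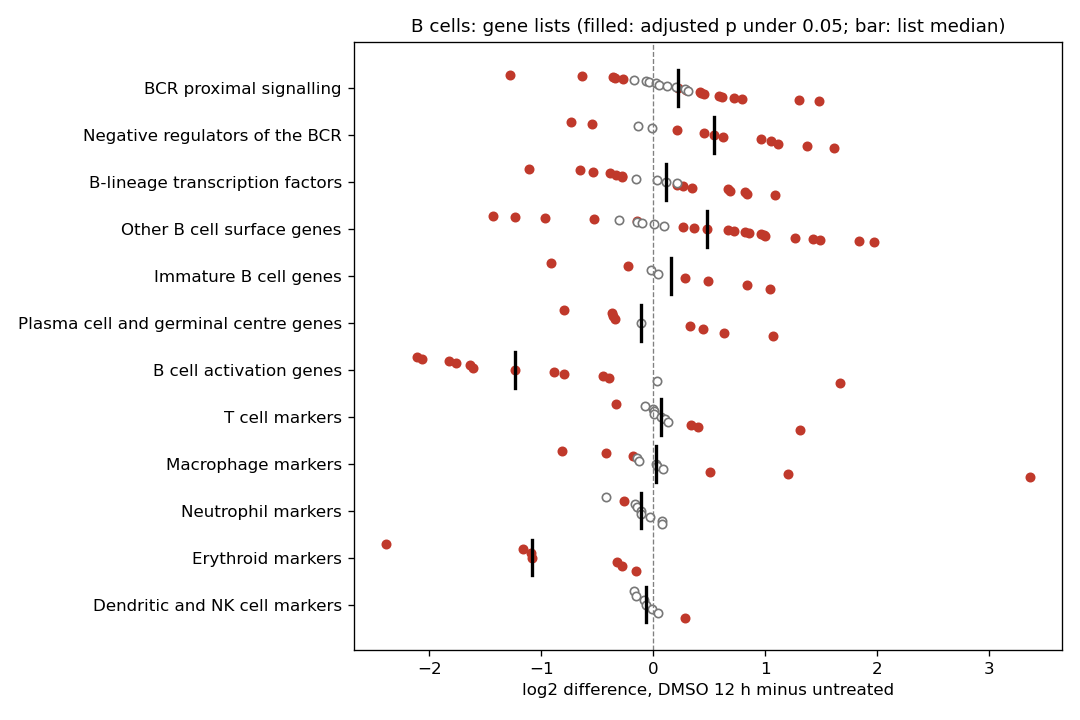
Log2 difference between DMSO 12 h and untreated B cells (x axis) for each tested gene of 12 lists (y axis), filled where adjusted p was under 0.05, with the list median as a bar. Negative regulators lie mostly above 0 with a median of 0.54, and activation genes and erythroid markers lie mostly below 0 with medians of -1.23 and -1.08.

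Markers of other cells also moved in the B cell samples, where 25.0% of all genes were higher and 22.4% lower in DMSO. All 7 tested erythroid markers were lower at 12 h, with Slc4a1 falling by 2.39 and Alas2 by 1.17 in DMSO. Of the 9 with a probe, 7 were well above background in untreated cells, and Klf1 in none of the B cell channels. The log2 of their summed intensity was 13.43 to 13.61 in untreated, 13.42 to 13.82 in KLA 1 h, 12.42 to 12.46 in DMSO 12 h and 11.97 to 12.27 in KLA 12 h cells. Of 11 macrophage markers 3 were higher and 3 lower in DMSO, and Emr1 (F4/80) rose from 7.48 and 7.56 to 10.92 and 10.84. Ctsd rose by 1.20, while Mpeg1 and Cd68 fell by 0.82 and 0.42. The summed macrophage level was 11.77 to 12.01 in untreated, 11.98 to 12.09 in KLA 1 h, 12.82 to 12.83 in DMSO and 12.67 to 12.69 in KLA 12 h cells, against 19.33 to 19.36 in untreated EPM. Itgam, Msr1, Fcgr1 and Mertk were not well above background in any B cell channel. T cell markers had 3 of 11 higher and 1 lower in DMSO, with summed levels of 12.33 to 12.42 in untreated and 12.63 to 12.65 in DMSO cells. Most of the sum came from Cd2 (means of 11.64 untreated and 11.31 in DMSO) and Lck (10.11 and 11.43). Cd3e had 7.05 and 7.12, Cd3d 6.34 and 6.35, Cd4 6.67 and 6.67, and Cd8b1 8.07 and 8.40. These 4 are named here after their values were seen. Lck rose by 1.31, Cd28 was at least 1.19-fold higher than in untreated cells, where it was not well above background, Cd2 fell by 0.34, and Thy1 and Cd247 were not well above background in any B cell channel. Of 9 neutrophil markers 0 were higher and 1, Mpo, was lower (-0.26). Of 7 dendritic and NK cell markers 1, Prf1, was higher (0.28) and 0 were lower. The part of these shifts in the results for the 9 genes was not tested.

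Between cell types, 8 of the 9 genes were higher in untreated B cells than in untreated EPM, against 38.5% of all genes tested, and all 9 were higher than in BMDM with DMSO for 1 h, against 37.5%. The cells of each type were on a slide of their own, which leaves cell type confounded with slide, and both comparisons share the untreated B cells. With array means as samples, 8 and 9 genes passed as well, against 4671 of 17347 and 4451 of 17343 genes being higher. Fcer2a and Cr2 entered the tests only through the B cell conditions, and Pax5 otherwise only through EPM with KLA for 12 h. Their place in these counts was favoured by that filter. Of the 6 genes detected in both untreated B cells and untreated EPM, 5 were higher, against 5862 of 12825 such genes. Ms4a1 was 8.87 higher on the log2 scale than in EPM and 8.22 higher than in BMDM, and Vpreb3 was 6.63 and 7.09 higher. Cd79a was 4.25 and 4.02 higher. The exception was Blnk, with 16.14 and 15.99 in B cells and 16.005 and 15.927 in EPM (difference 0.10, 95% interval -0.06 to 0.26, adjusted p = 0.253), although it was 1.57 higher than in BMDM (adjusted p = 9.01e-13).

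Detection in macrophages differed from gene to gene. Fcer2a and Cr2 were not well above background in any of the 16 macrophage channels, and Pax5 only in EPM with KLA for 12 h, where it had 6.29 and 6.44. Fcer2a was at least 67.3-fold higher in untreated B cells than in untreated EPM and at least 64.4-fold higher than in BMDM with DMSO for 1 h. The bounds were 62.7-fold and 58.8-fold for Pax5 and 11.7-fold and 10.9-fold for Cr2. For Pax5 and Cr2 these rest on the brighter probe. For these bounds the macrophage level in each channel was set to the lowest level of any probe well above background (5.44 to 6.16), or to the measured value where that was higher. The probe for the Pax5 mRNA, not well above background in any macrophage channel, gave bounds of 2.94-fold and 2.90-fold. The second Cr2 probe was well above background in all 8 EPM channels, between 6.33 and 6.56, and in 5 of 8 BMDM channels. Its level in untreated B cells was higher than in EPM by 0.19 and than in BMDM by 0.51 on the log2 scale, with no test of its own.

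Cd79a and Ms4a1 were mostly detected in macrophages but near that floor. Cd79a lay between 6.33 and 6.55 in EPM and between 6.47 and 6.77 in BMDM, all 16 channels well above background. Ms4a1 lay between 6.12 and 6.68 in EPM, with 6 of 8 channels well above background, and between 6.28 and 6.97 in BMDM, with 7 of 8. The second Ms4a1 probe was well above background in 4 of 8 EPM channels and 1 of 8 BMDM channels, with no value above 6.35. On its main probe Vpreb3 was detected in 8 of 8 EPM channels and in 5 of 8 BMDM channels, with no value above 6.73. The second Vpreb3 probe was detected in all 8 channels of each, between 6.34 and 6.86.

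**Figure D4:**
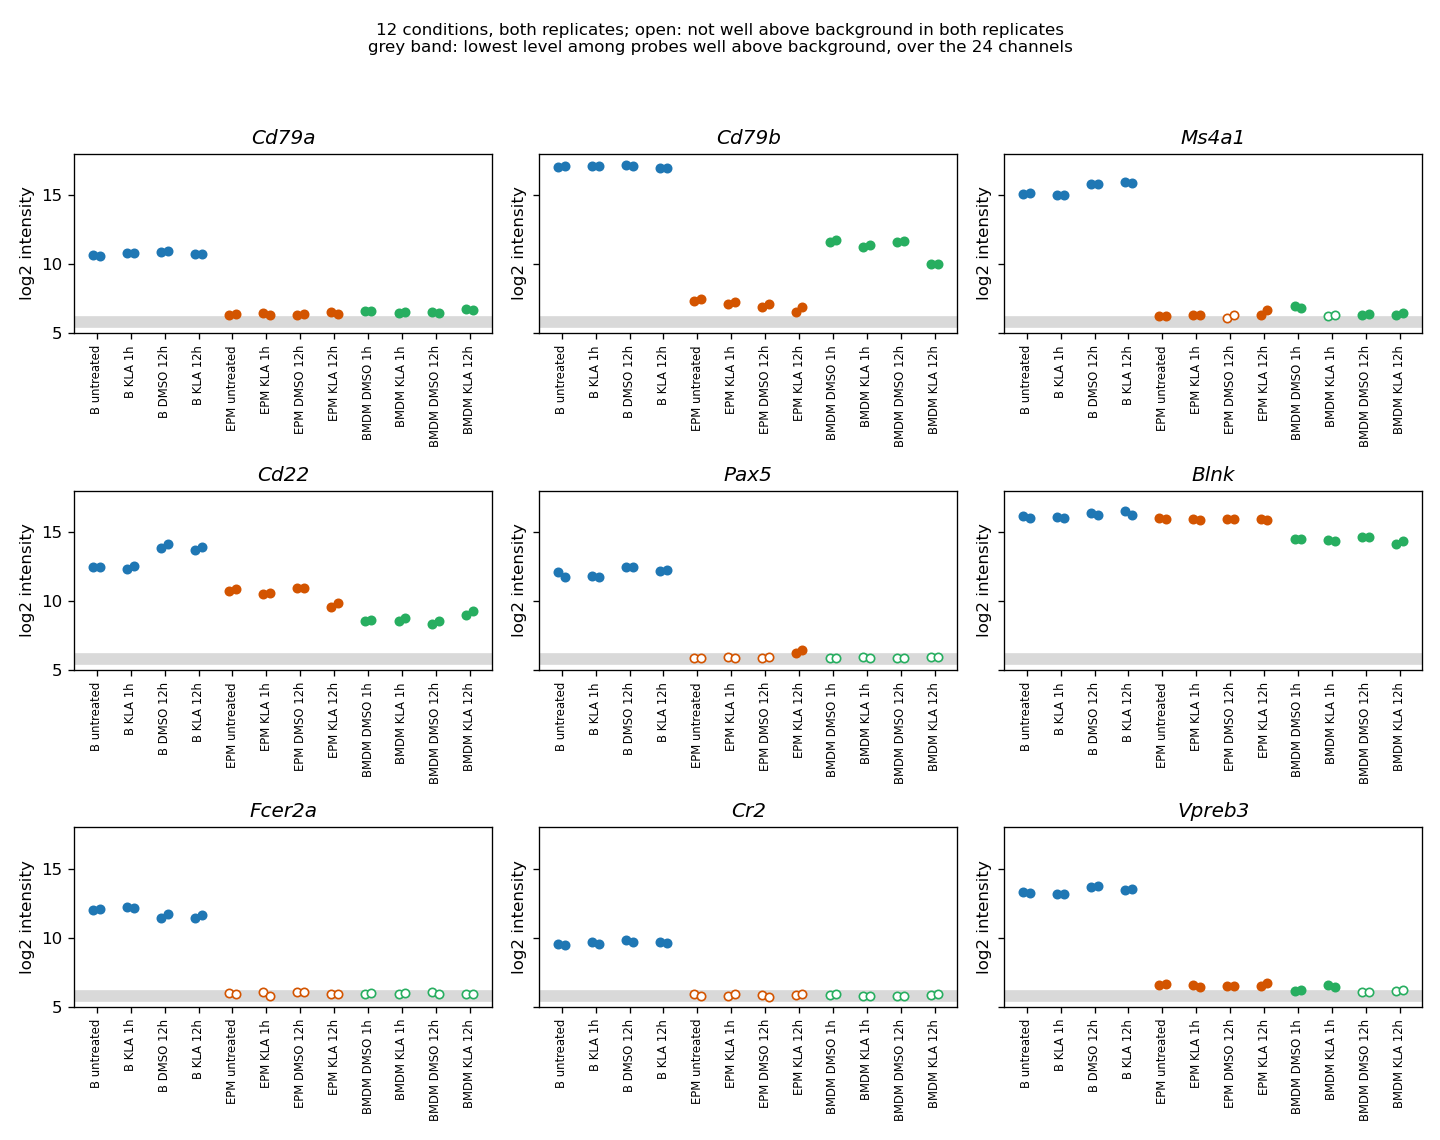
Normalized log2 intensity (y axis) of the 9 genes in the 12 conditions (x axis), both replicates as points, open where a condition was not well above background in both replicates, with a grey band at 5.44 to 6.16 for the lowest detected level per channel. Blnk is bright in all 3 cell types, Cd79b in B cells and BMDM, and Cd22 lies between the B cell level and the band in both kinds of macrophages.

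On the main probe of each gene, Blnk and Cd22 lay well above the floor in both kinds of macrophages, and Cd79b in BMDM. Blnk lay between 15.838 and 16.005 in EPM and between 14.16 and 14.63 in BMDM. Cd22 lay between 9.61 and 10.99 in EPM and between 8.34 and 9.29 in BMDM. For Cd79b the order was the opposite, at 6.55 to 7.50 in EPM and 10.00 to 11.75 in BMDM. No EPM channel overlapped a BMDM channel for any of these genes on the main probe. The second Cd22 probe lay near the floor, between 6.39 and 6.80 in EPM and between 6.12 and 6.48 in BMDM, and these ranges overlapped.

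The effect of KLA in macrophages was tested at 1 h and at 12 h. At 1 h in EPM 0 of the 9 genes passed (limma), with 1 at an unadjusted p under 0.05, against 29.1% of all genes tested in either direction. Of the 9, 6 were well above background in both replicates of untreated or KLA 1 h cells. With the dye as a replicate block Cd22 (-0.23, adjusted p = 0.00534), Cd79b (-0.21, adjusted p = 0.0308) and Vpreb3 (-0.16, adjusted p = 0.044) passed. Of all 17345 genes, 2220 were then higher and 4831 lower. On their second probes, Cd22 differed by -0.23 and Vpreb3 by -0.03, with no test of their own. At 12 h in EPM 4 of 9 passed, against 53.9% of all genes. These 4 were among the 7 well above background in both replicates of DMSO or KLA. Cd22 fell from 10.98 and 10.99 with DMSO to 9.61 and 9.85 with KLA, by 1.25 on the log2 scale (adjusted p = 3.67e-08). The second Cd22 probe, near the floor, differed by -0.26, with no test of its own. The other 3 called genes were close to the floor. Pax5 and Ms4a1 were not well above background in EPM with DMSO for 12 h. Pax5 was at least 1.24-fold higher with KLA (adjusted p = 0.000133), whereas its mRNA probe differed by 0.01 on the log2 scale. Ms4a1 was at least 1.22-fold higher (adjusted p = 0.0192), and at least 1.11-fold on its second probe. Cd79b fell by 0.29 on the log2 scale (adjusted p = 0.0229). The calls for Ms4a1 and Cd79b were lost when only EPM channels were fitted. The Ms4a1 call was lost without KLA replicate 2 (log2 change 0.095) or DMSO replicate 1 (0.19), and the range over the replicates left out was 0.095 to 0.47. With processed signal the Ms4a1 change was 1.35. Cd79a passed in EPM at 12 h with processed signal (0.48, adjusted p = 0.00369, against 0.12). The Cd79b call was lost without KLA replicate 1 or DMSO replicate 2, with a range of -0.49 to -0.10 over the replicates left out.

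In BMDM 3 of 9 genes passed at 1 h, against 28.6% of all genes, and 4 of 9 at 12 h, against 65.0%. These calls were among the 6 genes at 1 h and the 5 at 12 h that were well above background in both replicates of DMSO or KLA. Cd79b had 11.60 and 11.68 with DMSO and 10.00 and 10.01 with KLA for 12 h, a 3.09-fold fall (log2 change -1.63, standard error 0.103, adjusted p = 9.28e-11). At 1 h it fell by 0.35 (adjusted p = 0.0156). That call was lost with an offset of 16 (adjusted p = 0.0572), with processed signal (-0.25, adjusted p = 0.349), and without KLA replicate 1 or DMSO replicate 2. Cd22 rose from 8.34 and 8.54 to 9.03 and 9.29 at 12 h, by 0.72 on the log2 scale (adjusted p = 2.85e-05). The second Cd22 probe, near the floor, differed by 0.19, with no test of its own. Blnk fell from 14.63 and 14.63 to 14.16 and 14.32, by 0.39 (adjusted p = 0.000227), but with processed signal it rose by 0.36 (adjusted p = 0.000187). In the authors' table its change was 0.04 (adjusted p = 0.733), and without the quantile step it was -0.13 (adjusted p = 0.151), neither called in limma. In EPM at 12 h Blnk was -0.06 (adjusted p = 0.549), and it rose by 0.24 without the quantile step and by 0.21 with processed signal. The remaining calls were for dim genes, and their values with processed signal were over 1.5 times larger. Cd79a at 12 h was 0.20 (lost without KLA replicate 1) and 0.64 with processed signal. Without the quantile step the Cd79a call was lost as well (0.09, adjusted p = 0.208 in limma). At 1 h Ms4a1 was -0.60 and -1.93 with processed signal, and Vpreb3 was 0.34 and 1.09. On their second probes Ms4a1, not well above background there, differed by 0.09 and Vpreb3 by 0.18, with no test of their own. With array means as samples, both control arrays of a cell type served as replicates, and a lone KLA array was assumed to vary like them. Calls from such a fit are not given, and no macrophage call here was tested against the spread between KLA arrays. The log2 change of Cd22 at 12 h was then -1.16 in EPM and 0.63 in BMDM.

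**Figure D5:**
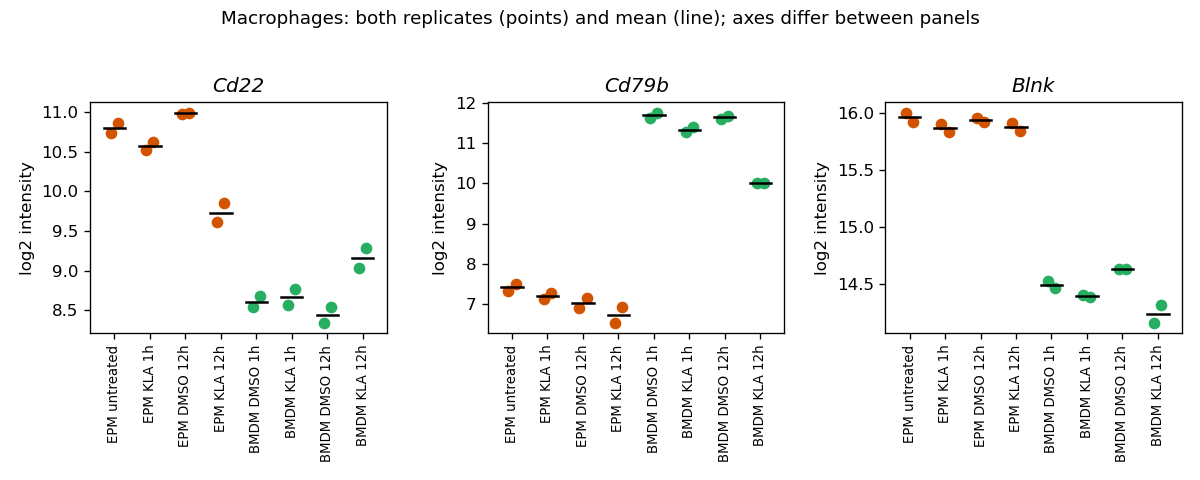
Normalized log2 intensity (y axis, range differing between panels) of Cd22, Cd79b and Blnk in the 8 macrophage conditions (x axis), with both replicates as points and their mean as a line. With KLA for 12 h Cd22 is lower in EPM and higher in BMDM than with DMSO, and Cd79b in BMDM drops from about 11.64 to 10.01.

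The pattern of each gene over the means of the 12 conditions was set beside those of all genes tested, as a description. All 12 points come from 3 slides with 1 cell type each, so that the difference between B cells and macrophages dominates the correlation. For Cd79a, LOC634594 and Gm1418 were among the closest genes (Pearson r of 0.999 each). For Ms4a1 they were Igl-V1, LOC634065 and LOC636875, for Pax5 LOC207685, Gimap1 and 2010309G21Rik, and for Fcer2a Cd2, Lax1 and H2-DMb2. For Cr2 they were Gm1502, Fcrla and Tmem163, and for Vpreb3 Gimap5, Gimap1 and Fcrla. For Cd79b they were Traf3ip3 (0.998), pPtp4a3 (0.997) and Mfng (0.995). Cd22 and Blnk had less similar neighbours. For Cd22 they were 4930519N16Rik, Il27ra and Tnrc15 (0.985 each), and for Blnk Tesk1 (0.979), 2600003E23Rik (0.976) and EG621324 (0.975).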

How the data were processed

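Gene expression was measured in 24 channels of 12 arrays. The authors deposited scanner intensity files (Agilent Feature Extraction 9.5.3.1 per the labels) and a table of normalized intensity on a linear scale, whose normalization is not given in the sources used here. The paper gives biological triplicates, and 2 replicates per condition were analysed here. Groups were taken from the labels. Background was corrected with normexp (offset 50), dyes were balanced by loess within arrays, and the arrays were brought to common quantiles of their mean intensity. Spots flagged as outliers were left out and spots of a probe averaged. The probe with the highest mean represented a gene, and a gene was tested if 1 or more conditions had it well above background in both replicates. limma 3.58.1 (R 4.3.3) was fitted with 1 coefficient per condition (12 residual degrees of freedom) and Benjamini-Hochberg adjustment over all genes tested, at 0.05. The fit was run on simulated data for DMSO 12 h against untreated, with 200 genes changed of 17239. Of 100 genes changed 2-fold 99 were recovered, of 100 changed 4-fold 100, and 9 unchanged genes were called. In the data far more genes were called (8218 of 17344), so these rates need not carry over. With both replicates of a condition on 1 array, they say nothing of differences between arrays. Samples that shared an array had the same scanner file, from which red was taken for replicate 1 and green for replicate 2. The dye pairs the channels, since Cy5 minus Cy3 deviations of genes were positively correlated in all 66 pairs of arrays (r from 0.27 to 0.63), and a fit with the dye as a replicate block was made. The members and gene lists were chosen with earlier results of these data known. Besides the members, the genes named are, per list, up to 2 of the largest called changes in each direction in DMSO whose replicates did not overlap, and the 3 genes most alike in pattern. A few genes that this rule would name are not reported here. Tcf3 was taken from the probe named Tcfe2a, since the probe named Tcf3 carries the accession of Tcf7l1. The number of arrays limits the precision. Alternatives were an offset of 16, processed signal, other steps between arrays, filters and choices of probe, the authors' table, channels of the cell types compared alone, the dye block, array means as samples, exchanged B cell labels and each replicate left out.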

Additional observations from a re-analysis of the deposited data

Results flagged for a closer look

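The response to KLA at 12 h differed between EPM and BMDM for 3 of the 5 members that were well above background in both replicates of DMSO or KLA at 12 h in each cell type (interaction in limma, adjusted p under 0.05, against 47.8% of 17335 genes tested). The difference of EPM minus BMDM was -1.97 on the log2 scale for Cd22 (adjusted p = 1.96e-08), which changed by -1.25 in EPM and by 0.72 in BMDM, in opposite directions in both replicates of each. It was 1.34 for Cd79b (adjusted p = 5.76e-07), which changed by -0.29 in EPM, near the detection limit, and by -1.63 in BMDM. It was 0.33 for Blnk (adjusted p = 0.019), and with processed signal it was -0.16 (adjusted p = 0.179). Cell type and slide cannot be told apart in these differences. Both replicates of a condition shared an array, so their agreement does not cover differences between arrays. With array means as samples Cd22 changed by -1.16 in EPM and by 0.63 in BMDM. The Cd22 values rest on the brighter probe. The second Cd22 probe, near the detection limit, changed by -0.26 in EPM and by 0.19 in BMDM, with no test of its own.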

How the results depend on the processing

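The comparison of KLA 12 h with untreated B cells involves neither condition of the label conflict. There, 127 of 153 alternative values of single genes kept their direction and their side of the threshold, 26 lost the call and 0 reversed. The exchange of labels leaves this comparison as it is, so its values for the 9 genes were bound to be kept. Array means do involve the conflict, since they pool the KLA 1 h and DMSO 12 h arrays with the others. The count of 7 genes became 2 with array means as samples, 3 in the authors' table and 4 without the quantile step. Calls lost with a replicate left out are given for each gene above. For DMSO 12 h against untreated the count of 8 became 0 with the B cell labels exchanged (limma, 1 at an unadjusted p under 0.05). It became 0 in the authors' table, 2 with array means and 5 with processed signal. For KLA 1 h against untreated it became 8 with labels exchanged and 3 in the authors' table, and Pax5 was -0.32 without untreated replicate 2. For KLA 12 h against DMSO 12 h the count became 6 with labels exchanged, 4 in the authors' table, 2 with the dye as a replicate block and 1 with the mean of probes. Over all genes, the authors' table called 4042 higher and 3540 lower there, and the mean of probes 626 and 565. That table called 227 and 203 for DMSO 12 h and 3989 and 3189 for KLA 1 h against untreated. Processed signal called 4117 and 4425 for DMSO 12 h, and omission of the quantile step 3772 and 4020 for KLA 12 h against untreated. Between untreated B cells and EPM 5 of the 6 genes detected in both were higher, against 5862 of 12825 such genes. In macrophages, counts were taken over genes detected in at least 1 of the conditions compared. EPM with KLA for 12 h gave 2 in a fit of EPM channels alone, against 3322 higher and 5860 lower of all 17340 genes. Over genes detected in both conditions it gave 2, against 2941 and 5567 of 14178. Cd79a gained a call with processed signal, which called 3917 and 5209 of 17335. EPM with KLA for 1 h gave 1 with processed signal, against 1750 higher and 2281 lower of 17340 genes. It gave 1 without the quantile step, against 1552 and 3852 of 17347, and 3 with the replicate block, against 2220 and 4831 of 17345. Vpreb3 was -0.24 there without KLA replicate 1. BMDM gave 2 at 12 h without the quantile step, against 3431 higher and 8070 lower of 17344 genes. Array means leave KLA arrays of macrophages as lone samples assumed to vary like the control arrays, so their calls there are not given. In the B cell comparisons the spread of array means includes the response of macrophages to KLA. The other causes were not tested.

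With labels exchanged, DMSO 12 h against untreated gave log2 changes of -0.0112 for Blnk, -0.0437 for Cd22, 0.15 for Fcer2a, -0.12 for Ms4a1, -0.15 for Pax5 and -0.11 for Vpreb3, reversed in sign. KLA 1 h against untreated then gave 0.26, 1.51, -0.47, 0.68, 0.52 and 0.42 for these genes, and KLA 12 h against DMSO 12 h gave 1.41 for Cd22, 0.43 for Pax5 and 0.32 for Vpreb3. The authors' table gave, for DMSO 12 h, -0.0167 for Cd22, 0.16 for Fcer2a, -0.0465 for Ms4a1, -0.11 for Pax5 and -0.0400 for Vpreb3. It gave 0.31 for Blnk, 1.40 for Cd22 and 0.69 for Ms4a1 for KLA 1 h, 1.26 for Cd22 for KLA 12 h against DMSO 12 h, and 0.0370 for Blnk for KLA 12 h in BMDM. Blnk in macrophages depended on the scaling. With processed signal it gave 0.26 in BMDM at 1 h, 0.36 in BMDM at 12 h, 0.21 in EPM at 1 h and 0.21 in EPM at 12 h, an EPM minus BMDM difference of -0.16, and without the quantile step 0.24 in EPM at 12 h. Processed signal moved the median of all genes for KLA 12 h in BMDM from -0.03 to 0.15 and the share of calls that were higher from 44.0% to 56.3%, and omission of the quantile step moved them to -0.14 and 29.8%. Omission of that step moved the share for KLA 1 h in B cells from 52.6% to 15.7%, for KLA 12 h in EPM from 36.3% to 46.4%, and for untreated B cells to 39.3% against EPM (5386 higher and 8313 lower, from 6686 and 6699) and from 48.9% to 33.6% against BMDM. For KLA 1 h in EPM it was 32.3%, and 43.4% with processed signal. The replicate block changed no member call other than those given here and in the comparisons of KLA. Signal close to background limits Cd79a, Ms4a1, Pax5, Vpreb3, Fcer2a and Cr2 in macrophages.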
